A study of Mus musculus with 2 samples.

Results

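The regions described here are read clusters that lie antisense to protein-coding genes. They were selected on the deposited reads themselves: the reads of both libraries were pooled, intervals of the same strand that overlapped by at least 1 base were joined, and a cluster was kept when it held at least 10 reads, overlapped the body of a protein-coding gene on the opposite strand, and overlapped no gene body on its own strand. Of 96817 clusters with at least 10 reads, 558 met this rule, and another 4854 had no gene on either strand. The number of reads, the strand and the position in the opposite gene chose these clusters, so these values are given as a description.

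The study sequenced non-polyadenylated (NPA) RNA, the RNA left after transcripts with a poly(A) tail are removed with oligo(dT), from mouse embryonic stem cells (ESCs) and from neuronal progenitor cells (NPCs) derived from them. Each cell type was sequenced as 1 library that keeps the strand of the RNA, so there is no replicate and no test between cell types was made. All intervals are exact 95% intervals that cover counting error only, since amplified reads without molecular identifiers are not independent molecules, and a ratio compares these libraries rather than the cell types. The ESCs were of the line R1 at passage 18, grown with leukemia inhibitory factor (LIF) on a feeder layer of mouse embryonic fibroblasts treated with mitomycin C. The NPCs were the same line at day 7 of differentiation, after 4 days as embryoid bodies without LIF and replating in ITS medium (insulin, transferrin and selenium) on poly-L-ornithine and fibronectin. The ESC library held 4271306 deposited reads and the NPC library 4399729, so that 1 read is worth 0.234 RPM (the usual read count scaled to the total reads of the library) in ESCs and 0.227 RPM in NPCs. For a count of 0 a fixed floor of 3 reads was used rather than an exact interval, or 0.702 RPM in ESCs and 0.682 RPM in NPCs.

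The labels were checked against marker genes. *Pou5f1*, which encodes the pluripotency factor Oct4, had 2623 reads in the ESC library against 724 in the NPC library. In total 9 of 10 pluripotency genes had the higher RPM in ESCs, *Lin28a* being the exception. Of 9 neural progenitor genes measured 6 had at most 13 reads in the NPC library, such as *Pax6* with 1 read in ESCs and 12 in NPCs and *Fabp7* with 0 and 2. The other 3 were not near 0 in either library: *Nes* had 66 and 121 reads, *Tubb3* 109 and 87, and *Dll1* 70 and 40. Genes of endoderm were high in the NPC library: *Gata4* had 61 reads in ESCs and 1179 in NPCs, *Sox17* 8 and 383, and the laminin gene *Lama1* 427 and 10346. In a bulk library fewer cells of a type and less RNA per cell cannot be told apart. The NPC label thus stands for the protocol here, and none of the 558 clusters lay in a gene of these marker lists.

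Antisense RNA is transcribed from the strand opposite to a gene and can base-pair with the messenger RNA of that gene. Reads can come to lie antisense to a gene in other ways as well. Processed pseudogenes and other retrocopies are DNA copies of spliced messenger RNAs that were inserted elsewhere in the genome, often in introns, so a short read of the parent gene can match the copy equally well, and a copy of a spliced RNA is recognized by exons joined without the intron. RNA polymerase also transcribes past the annotated end of a gene before it terminates, and where a pair of genes points towards each other this RNA runs antisense to the neighbour.

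Printed first are the most frequent 48 nt of antisense clusters that also match a spliced messenger RNA of another gene. They are shown because each crosses an exon junction of that gene, and all of their bases are coding there. The coordinates are the mm9 positions in the intron of the opposite gene at which the reads were placed; lower case marks the end of one exon of the matched gene and capitals the start of the next, all read 5′ to 3′.
Wdr70 intron, Rpl19 exons 4 and 5, chr15:7925394-7925441, plus strand: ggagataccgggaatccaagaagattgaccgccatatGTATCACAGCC
Adamts6 intron, Rpl32 exons 3 and 4, chr13:105221153-105221200, minus strand: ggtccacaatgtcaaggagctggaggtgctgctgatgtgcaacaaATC
Sh3rf1 intron, Rps2 exons 2 and 3, chr8:63859778-63859825, minus strand: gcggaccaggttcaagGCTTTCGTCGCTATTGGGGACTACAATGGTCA
Wrap53 intron, Rps27 exons 2 and 3, chr11:69387439-69387486, plus strand: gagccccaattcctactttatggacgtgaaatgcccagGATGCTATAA
Fpr3 intron, Ncaph2 exons 2 and 3, chr17:18049552-18049599, minus strand: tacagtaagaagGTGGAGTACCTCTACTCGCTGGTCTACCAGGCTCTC
Pcsk5 intron, Eif5a exons 5 and 6, chr19:17767289-17767336, plus strand: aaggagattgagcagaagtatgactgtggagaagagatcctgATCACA

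In the matched genes these junctions span introns of 259 bases in *Rpl19*, 1297 in *Rpl32*, 237 in *Rps2*, 148 in *Rps27*, 2973 in *Ncaph2* and 95 in *Eif5a*. At the antisense placements the same 48 nt lay in 1 unbroken stretch of the genome.

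The next sequences are whole clusters that match no spliced transcript. They are shown as examples of the other kind of antisense cluster, and the capitals mark the most frequent 48 nt in each. All are from mm9, overlap no exon of the opposite gene (that of *Rtl1* is counted at the 5′ end, since it reaches into the 500 bases from the start), and are unique in mm9 for at least 90% of their reads.
Zmynd8 antisense cluster, chr2:165639542-165639636, plus strand: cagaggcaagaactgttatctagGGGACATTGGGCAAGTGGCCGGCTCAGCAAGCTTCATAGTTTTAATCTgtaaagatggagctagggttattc
Rtl1 antisense cluster, chr12:110838024-110838104, plus strand: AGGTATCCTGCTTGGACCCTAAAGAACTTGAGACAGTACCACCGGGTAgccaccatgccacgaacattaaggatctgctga
Echdc2 antisense cluster, chr4:107849120-107849204, minus strand: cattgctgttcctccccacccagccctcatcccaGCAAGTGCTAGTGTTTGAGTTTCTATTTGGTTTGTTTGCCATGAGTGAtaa

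The 558 clusters were a small part of the NPA RNA. They held 10649 reads in ESCs, or 0.249% of the library (exact 95% interval 0.245 to 0.254%), and 11871 reads in NPCs, or 0.270% (0.265 to 0.275%). Most were short and shallow, with a median length of 98 bases (1 to 426) and a median of 20.5 pooled reads, and the largest held 1815. Near the minimum, 66 clusters that met all other parts of the rule held 9 reads, 50 held 10 and 46 held 11.

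Each cluster was given 1 position in the opposite gene, with the 5′ end (a first exon, or the 500 bases from the start of a protein-coding transcript) taken before the last exon, an inner exon and an intron. Introns held 468 clusters with 9669 reads in ESCs and 10626 in NPCs, and last exons held 64 clusters with 679 and 876 reads. Inner exons held 17 clusters with 158 and 219 reads, and 5′ ends only 9 clusters with 143 and 150 reads. Introns make up 91.8% of the bases of protein-coding genes that are free of a gene on the other strand, and relative to these bases clusters were densest in last exons. There were 2.04 clusters per megabase in last exons, against 0.544 at 5′ ends, 0.541 in inner exons and 0.528 in introns.

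The reads of the intronic clusters rarely had a sequence of their own. The 48 nt of a read are called unique where they occur once in mm9, both strands searched. Of the reads in antisense clusters 28.0% were unique (27.4 to 28.6%), against 78.4% of the reads in all clusters with at least 10 reads and 43.0% in clusters with no gene on either strand. By position, the unique share was 23.9% in both libraries for introns, 65.1% in both for last exons, and 90.5% in ESCs and 91.8% in NPCs for inner exons. At 5′ ends it was 23.1% in ESCs and 48.7% in NPCs, on few reads. At least 90% of the reads were unique in 130 clusters, or 23.3% of them against 79.0% of all clusters: 68 of 468 in introns, 41 of 64 in last exons, 15 of 17 in inner exons and 6 of 9 at 5′ ends. In 282 clusters no read was unique.

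**Figure D1:**
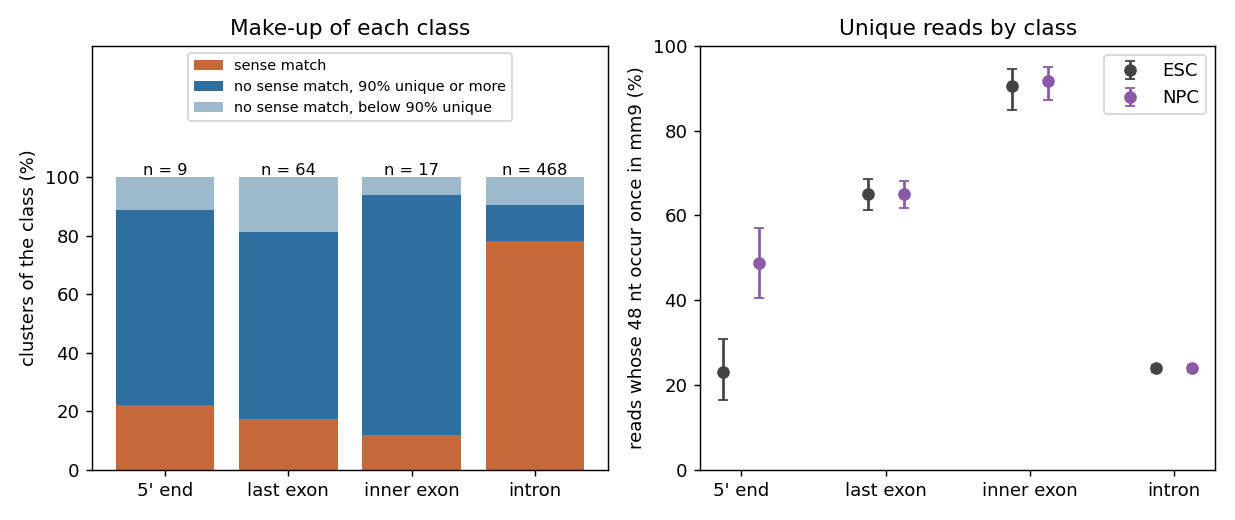
Antisense clusters by position in the opposite gene. Left, the share of clusters (%) in each position that match a spliced transcript in sense, and of those that do not, divided at 90% unique reads; right, the share of reads (%) whose 48 nt occur once in mm9 in each library, with exact 95% intervals. Sense matches made up 367 of the 468 intronic clusters and 11 of the 64 in last exons.

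To see where the repeated sequences belong, the 48 nt of every read were compared with the spliced transcripts of all other genes, in the sense direction and with up to 2 mismatches. At least 50% of the reads matched such a transcript in 382 of 558 clusters, or 68.5% (64.4 to 72.3%), and this group is called sense match here. The division was sharp, since all reads matched in 368 clusters, none in 169, and an intermediate share in 21. Matching reads made up 74.1% of the antisense reads in ESCs and 73.0% in NPCs. Among these reads 92.5% matched the transcript with as many mismatches as the place where they had been put, 2.34% with fewer and 5.20% with more. Sense matches were 367 of 468 clusters in introns, 11 of 64 in last exons, 2 of 17 in inner exons and 2 of 9 at 5′ ends. Clusters with no gene on either strand matched a spliced transcript in 3012 of 4854 cases, or 62.1%.

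There were 195 matched genes, and the gene was protein-coding for 369 of 382 clusters. Where several genes matched equally many reads a protein-coding gene was taken first, so this count is partly set by that rule. Ribosomal protein genes, which encode the protein part of the ribosome and are known for many processed pseudogenes, were matched by 63 clusters (16.5%) that held 6198 of the 16546 reads of the group (37.5%). *Rpl7a* was matched by 10 clusters in 9 different opposite genes, *Gapdh*, which encodes a glycolytic enzyme, by 7 clusters in 5, and *Hmgb1*, which encodes a chromatin protein, by 7 in 6. In other cases several clusters of 1 opposite gene matched the same gene, so that they are not independent examples: all 10 clusters that matched *Rbpj*, the DNA-binding effector of Notch signalling, lay in *Cntnap2*, and all 9 that matched *Mapk1ip1l* lay in *Klhl32*. An annotated pseudogene ended within 1000 bases before the cluster on its own strand for 63 of the 382 clusters, and for 3 of the 176 clusters outside the group. The median over the clusters of the group was 4 places in mm9 with up to 2 mismatches.

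Some of these sequences crossed exon junctions. The most frequent 48 nt of a cluster had an exact match in the matched gene for 333 of the 366 clusters examined, and they crossed an exon junction there for 60, or 18.0%, with all bases coding in 56, and lay within 1 exon for the rest. The cluster with the most reads, in an intron of *Wdr70* (chr15:7925306-7925454, plus strand), had 820 ESC reads and 995 NPC reads, a ratio of NPC over ESC of 1.18 (1.07 to 1.29). *Wdr70* encodes a WD-repeat protein. Of these reads 1614, or 88.9%, were the *Rpl19* sequence printed above. *Rpl19* encodes a protein of the large ribosomal subunit and had 267 and 240 reads on its own exons. No read of the cluster was unique, and the 48 nt had a median of 9 places in mm9 with up to 2 mismatches.

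In 54 of the 75 clusters of this group with at least 50 reads, the log2 ratios of NPC over ESC of the cluster and its matched gene had the same sign. With the opposite gene the sign was the same in 32 of the 75. The *Wdr70* cluster was not among these 54, having more reads in NPCs while *Rpl19* had more in ESCs. The following examples were chosen after their values had been seen. In an intron of the metalloprotease gene *Adamts6* there were 583 ESC reads against 383 NPC reads, and its match, the ribosomal protein gene *Rpl32*, had 3292 and 1733. In an intron of *Sh3rf1*, which encodes a ubiquitin ligase, the cluster had 269 and 62 reads beside 18259 and 5153 of *Rps2*. Both clusters and their matched genes had more reads in ESCs, whereas the exons of *Adamts6* itself had 2 and 10 reads. Exon reads of *Sh3rf1* and of *Pcsk5*, the next example, are not given here. In an intron of the proprotein convertase gene *Pcsk5* there were 52 ESC reads against 160 NPC reads, and *Eif5a*, which encodes a translation factor, had 619 and 918. A second *Pcsk5* cluster with the same match had 68 and 54 reads, in the other direction. In an intron of *Gch1*, which encodes the first enzyme of tetrahydrobiopterin synthesis, the cluster had 40 and 119 reads beside 944 and 1595 of the DNA repair gene *Rad23b*. In *Gch1* the cluster and the matched gene both had more reads in NPCs, while *Gch1* exons had 44 reads in ESCs and 21 in NPCs.

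A unique sequence did not place a cluster outside this group. Of the 130 clusters with at least 90% unique reads 12 had a sense match, and for 7 of them at least 90% of the reads matched only across an exon junction. The exact genome search found at least 90% of these reads once, at the cluster, since in the matched gene the sequences are divided by an intron. The clearest was in an intron of *Fpr3*, a formyl peptide receptor gene with no exon read in either library (chr17:18049535-18049630, minus strand). It had 108 reads in ESCs and 121 in NPCs, of which 98.7% were unique in mm9 and 99.1% matched *Ncaph2*, a subunit gene of the condensin II complex, only across a junction. *Ncaph2* itself had 609 and 682 reads. Smaller clusters of this kind, listed after their values had been seen, lay in introns of *Vmn2r53* (match *Psip1*, 3 and 10 reads), *H60b* (match *Arhgap5*, 8 and 4) and *Wls* (match *Cnn2*, 4 and 7), and in an inner exon of *Slc28a3* (match *Cct7*, 11 and 12).

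Outside introns the sense matches were few but included the deepest clusters at 5′ ends and in last exons. At 5′ ends, both clusters of *Gm10874* matched *Got2*, which encodes a mitochondrial aminotransferase, with 61 and 35 reads in the first and 31 and 33 in the second, and a *Got2* pseudogene, *Got2-ps1*, was annotated 148 bases before the nearer one. In last exons the cluster of *Spopl* (41 and 73 reads) matched the ubiquitin-conjugating enzyme gene *Ube2d3*, and that of *Slc7a11* (44 and 59) the tubulin gene *Tuba1a*. In inner exons the cluster of *1110038D17Rik* matched *Gm8730*, with 8 and 18 reads.

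**Figure D2:**
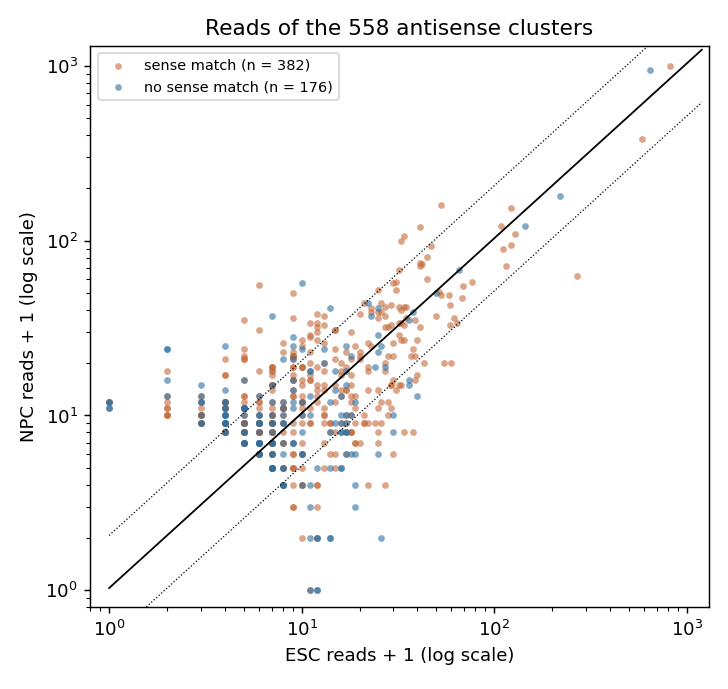
Reads of the 558 antisense clusters in ESCs (x axis) and NPCs (y axis), both plus 1 on a log scale. Each point is 1 cluster; the solid line marks equal RPM and the dotted lines a 2-fold difference. Most clusters lie below 100 reads in both libraries, and the *Wdr70* cluster (820 and 995 reads) and the *Itga9* cluster (645 and 946) are the largest.

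The ratio between the libraries was described for each cluster as log2 of NPC over ESC RPM with 1 read added. More than 2-fold more RPM in NPCs was found in 136 clusters (24.4%), below the 29.3% of all clusters with at least 10 reads, and more than 2-fold more in ESCs in 88 (15.8%), above the 10.7% of all clusters. Clusters with no gene on either strand were close to the antisense clusters, with 25.5% and 14.8% past 2-fold and a median of 0.26. With a minimum of 50 reads the ESC share was 8.89%, and 9.17% of all clusters. When each start position was counted once the shares were 5.73% in NPCs and 13.4% in ESCs, against 11.6% and 8.48% of all clusters. A scaling by the median ratio over clusters, which moves all clusters alike, gave 12.9% and 24.7%, against 18.3% and 18.1% of all clusters. The median was 0.23 in antisense clusters and 0.43 in all clusters. With a scaling factor taken instead as the median ratio of 95083 clusters, both medians fell, to -0.22 and -0.01. A scaling shifts every cluster by the same amount, so the distance between the medians is fixed by construction and the sign of either says only which scaling was used. With each start position counted once the median was -0.08 in antisense clusters and 0.02 in all clusters. Among clusters with at least 100 reads in a library and at least 90% unique reads there were only 2. The *Fpr3* cluster had an NPC over ESC ratio of 1.09 (0.832 to 1.42) and a cluster in *Zc3h7a*, whose intervals were only a few bases long, an ESC over NPC ratio of 1.27 (1.03 to 1.55).

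Next, the ratio of each cluster was set beside those of other genes, as a description across clusters that share the libraries, so no p is given. Over the 382 sense match clusters, Spearman's rho of the log2 ratios was 0.61 with the matched gene and -0.10 with the opposite gene. The signs were the same in 287 and in 186 of the clusters, respectively. In the 75 clusters with at least 50 reads, rho was 0.68 with the matched gene and -0.02 with the opposite gene. These points are not independent, since clusters share matched genes and opposite genes, and reads of 1 sequence could be placed at either copy.

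**Figure D3:**
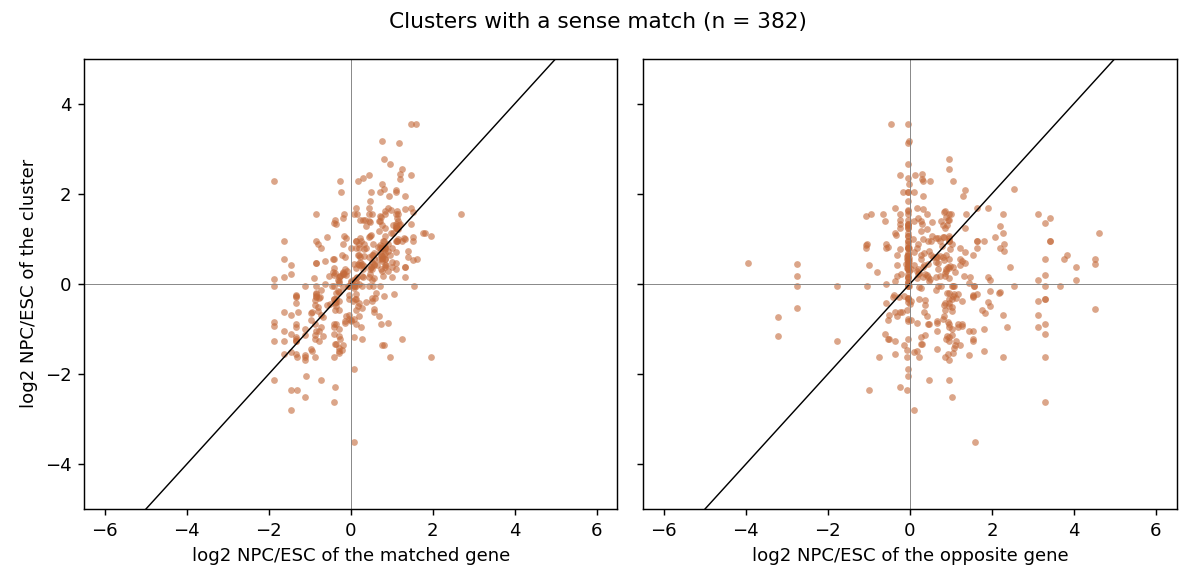
Log2 ratio of NPC over ESC RPM (1 read added) of the 382 sense match clusters (y axis) against that of the matched gene (left x axis) and of the opposite gene (right x axis). Each point is 1 cluster and the line marks equal ratios; points gather along the line on the left (rho 0.61) and show no slope on the right (rho -0.10).

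The remaining 176 clusters matched no spliced transcript with at least 50% of their reads, and 169 of them with none. They held 2775 reads in ESCs and 3199 in NPCs, and 118 of them had at least 90% unique reads. By position 101 lay in introns, 53 in last exons, 15 in inner exons and 7 at 5′ ends. Relative to the bases available this was 1.69 clusters per megabase in last exons, 0.478 in inner exons, 0.423 at 5′ ends and 0.114 in introns.

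These clusters lay mostly within 10000 bases past the end of a gene on their own strand. Such a gene ended within 1000 bases before the cluster for 52 of 176 (29.5%) and within 10000 bases for 114 (64.8%), of which 95 had a protein-coding gene there. In the sense match group a gene ended within 10000 bases for 92 of 382 (24.1%), and the gene was protein-coding for 22. Among the clusters without a sense match, a gene ended within 10000 bases for 51 of 53 in last exons, 12 of 15 in inner exons, 49 of 101 in introns and 2 of 7 at 5′ ends. Genes that start within 10000 bases after the cluster were found for 26. Clusters that have no gene on either strand and no sense match were near a gene end as well, 1463 of 1842 (79.4%).

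The clusters were often arranged in runs. Where at least 3 of them followed the same gene within 10000 bases they were counted as a run, a definition made after seeing the data, and 13 runs held 57 clusters and 1354 reads. The run with the most clusters lay antisense to *Echdc2*, which encodes a protein related to enoyl-CoA hydratase, and began 2537 bases after the annotated end of *Zyg11a*, a gene for a substrate receptor of a cullin ubiquitin ligase. Its 9 clusters reached from 2537 to 6262 bases after that end and held 134 reads in ESCs and 51 in NPCs, a ratio of ESC over NPC of 2.71 (1.95 to 3.81). Every cluster of the run had more reads in ESCs: the last exon held 35 and 15, an inner exon 11 and 1, and the 7 clusters in introns between 7 and 18 in ESCs and between 3 and 9 in NPCs. Several clusters of the run passed the minimum through the ESC library alone, so the minimum favours this direction. The clusters also lie close together after the same gene and are not independent examples. The ratio of the run is thus given as a description only. The exons of *Zyg11a* had 126 and 62 reads, a ratio of 2.09 (1.53 to 2.89), while those of *Echdc2* had 41 and 44.

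The 3 runs whose interval lay above equal RPM in NPCs followed genes with more reads in NPCs. Antisense to *Ncbp2*, a subunit gene of the nuclear cap-binding complex, 4 clusters after the SUMO protease gene *Senp5* held 15 reads in ESCs and 60 in NPCs, a ratio of NPC over ESC of 3.88 (2.18 to 7.36). *Senp5* had 96 and 358 reads (3.62, 2.88 to 4.58), but *Ncbp2* also had 38 and 152 (3.88, 2.71 to 5.70), so for this run the intervals of both neighbours overlapped. Antisense to *Pkd2l2*, a gene of the polycystin family with no exon read in either library, 4 clusters after *Fam13b* held 20 and 90 reads (4.37, 2.67 to 7.49), and *Fam13b* had 81 and 295 (3.54, 2.76 to 4.58). No cluster of the *Ncbp2* and *Pkd2l2* runs reached 10 reads in ESCs. The minimum thus favours the direction of the ratios of these runs, which are given as a description only. Antisense to *Sdr39u1*, a short-chain dehydrogenase gene, 6 clusters that began 387 bases after the RNA-binding protein gene *Khnyn* held 60 and 103 reads (1.67, 1.20 to 2.33), and *Khnyn* had 141 and 265 (1.82, 1.48 to 2.25). The exons of *Sdr39u1* had 13 and 17 reads (1.27, 0.581 to 2.84), an interval that overlaps that of the run as well.

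In other runs the libraries were close to each other. Antisense to *Dnajc19*, a gene of the mitochondrial import machinery, 5 clusters held 100 reads in each library, 4 of them beginning within 570 bases after *Fxr1*, an RNA-binding protein gene with 1165 and 1023 reads. Antisense to *Snapc3*, a subunit gene of the complex that activates snRNA genes, 5 clusters between 127 and 1030 bases after *Psip1* held 76 and 78 reads, and *Psip1*, which encodes a chromatin-binding coactivator, had 383 and 483. Outside this run, other *Snapc3* clusters without a sense match had 9 and 23 reads, and 13 and 40 (NPC over ESC 2.99, 1.57 to 6.09). The former passed the minimum through the NPC library alone, so no ratio is given for it. Antisense to *Klhl10*, a gene known from male germ cells that had 3 exon reads in ESCs and 0 in NPCs, 4 clusters in the last exon held 67 and 77 reads, 3643 bases or more after *Klhl11* with 241 and 228. Antisense to *Chrac1*, a gene of a chromatin remodelling complex, 5 clusters after the Argonaute gene *Eif2c2* held 51 and 40 reads, and *Eif2c2* had 585 and 581. In these runs the interval of the ratio includes equal RPM. The opposite genes *Snapc3*, with 48 and 66 exon reads, and *Chrac1*, with 34 and 47, had ratios whose intervals overlap those of their runs, while *Dnajc19* had 3 and 15 (4.85, 1.37 to 26.2).

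Not all runs followed the ratio of the gene before them. After *Eif4a2*, a translation initiation factor gene with 31351 reads in ESCs and 10464 in NPCs, 3 clusters antisense to *Rfc4* held 21 reads in each library. After *Usp14*, with 123 and 354 reads, 3 clusters antisense to *Thoc1* held 24 and 28. For *Eif4a2* the interval of the run (NPC over ESC 0.971, 0.504 to 1.87) lies above that of the gene (0.324, 0.317 to 0.331), and for *Usp14* it lies below (1.13, 0.633 to 2.04, against 2.79, 2.27 to 3.46). The opposite genes had 15 and 21 exon reads for *Rfc4* and 57 and 121 for *Thoc1*, with intervals that overlap those of the runs.

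**Figure D4:**
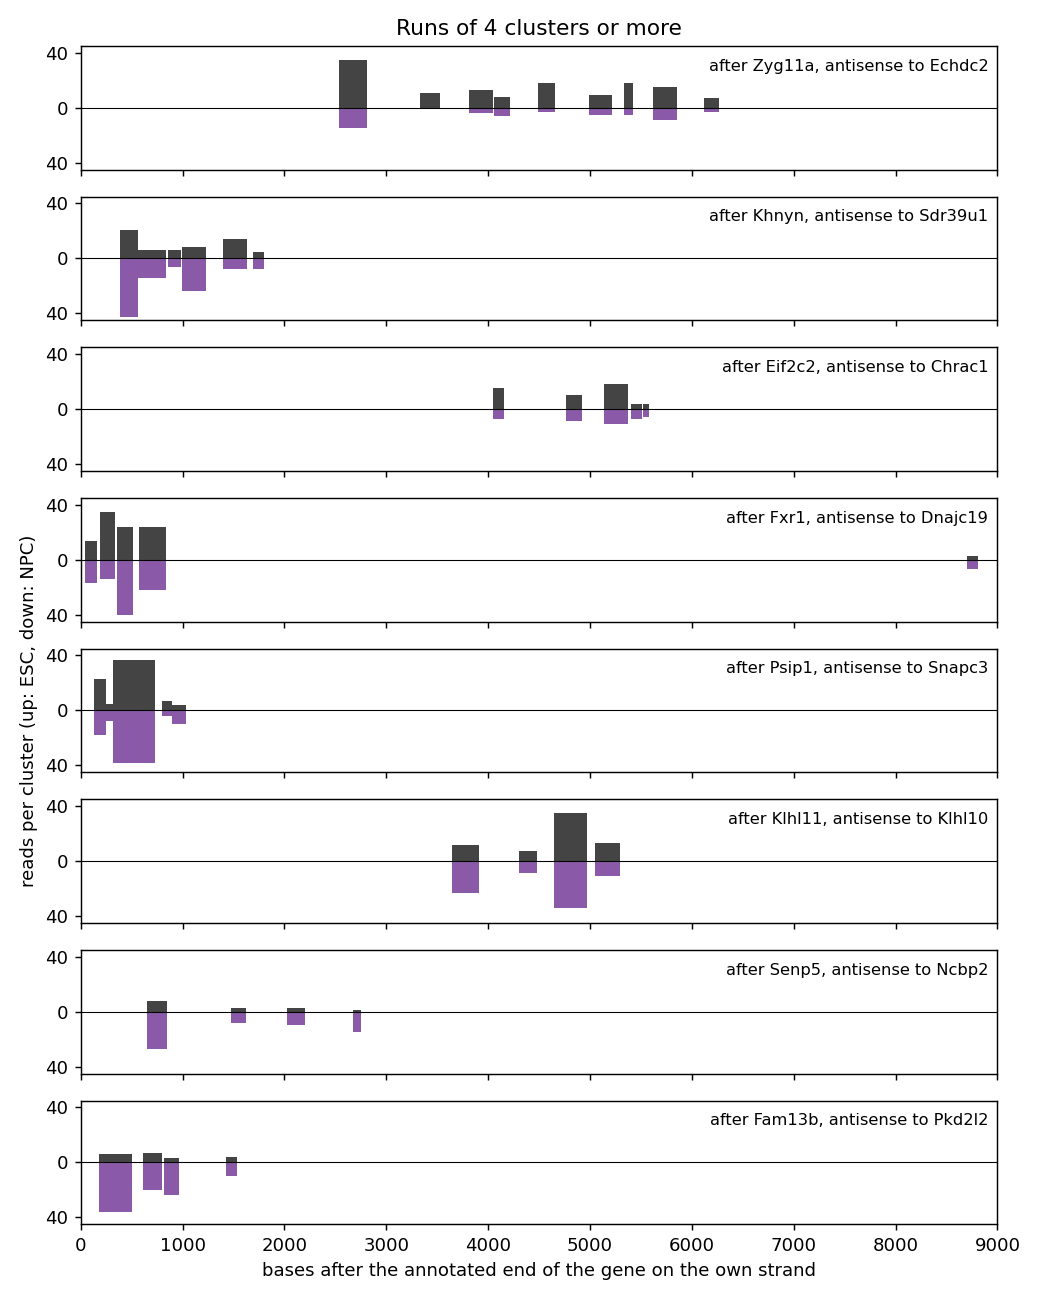
Runs of at least 4 antisense clusters without a sense match, by distance in bases (x axis) after the annotated end of the gene on their own strand. Each box is 1 cluster at its true width; its height is the number of reads in ESCs (upwards, grey) and in NPCs (downwards, purple). The run after *Zyg11a* is higher in ESCs in each of its 9 clusters, and the run after *Fam13b* higher in NPCs in each of its 4. Several clusters of the first passed the minimum of 10 reads through the ESC library alone, and all clusters of the second through the NPC library alone.

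Over all 114 clusters without a sense match within 10000 bases after a gene, Spearman's rho of the log2 ratio was 0.55 with the gene before them and 0.15 with the opposite gene. In the 41 with at least 20 reads, rho was 0.75 with the gene before and 0.02 with the opposite gene. Counting 1 cluster for each of the 60 genes, a choice made after seeing the data, gave 0.50 and 0.16. For the 62 clusters farther than 10000 bases from a gene end, rho was 0.19 with the gene before and -0.02 with the opposite gene. Whether RNA of the gene before continued into these clusters was not tested, and an annotated gene end that is too short and transcription past a true end cannot be told apart with these reads.

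**Figure D5:**
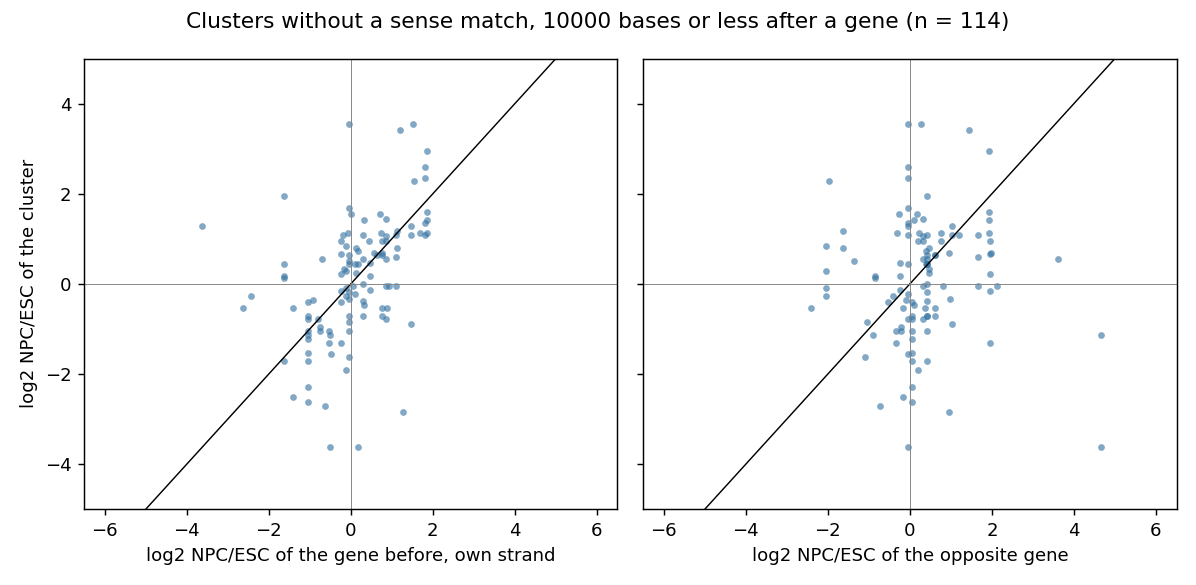
Log2 ratio of NPC over ESC RPM (1 read added) of the 114 clusters without a sense match that lie up to 10000 bases after a gene on their own strand (y axis), against that of this gene (left x axis) and of the opposite gene (right x axis). Each point is 1 cluster and the line marks equal ratios; rho was 0.55 on the left and 0.15 on the right.

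In each position, clusters with at least 90% unique reads were ranked by their reads and those at the top examined singly. In an inner exon of *Irgm1*, a gene for an immunity-related GTPase, the cluster (chr11:48676681-48676783, plus strand) had 9 ESC reads and 56 NPC reads. *Irgm1* exons had 10 and 26 reads, and the nearest gene before the cluster, *Trim7*, 19 and 7. At the 5′ end of *Gdpd5*, a glycerophosphodiester phosphodiesterase gene with 28 and 236 exon reads, the cluster had 1 read in ESCs and 23 in NPCs. The other strand of the same interval had 6 and 26. The *Irgm1* and *Gdpd5* clusters passed the minimum through the NPC library alone, so no ratio is given for them. A 5′ end cluster of *Mpnd* had 16 and 7 reads, of the transcription factor gene *Klf7* 10 and 3, and of the chromatin reader gene *Brd2* 7 and 6, and in these 3 the interval of the ratio includes equal RPM. In last exons the cluster of *Ubxn6* had 22 and 36 reads, 146 bases after the chromatin assembly factor gene *Chaf1a*, and that of *Limd2* 17 and 21, 909 bases after the kinase gene *Map3k3*. The last exon clusters of *Klhl10* (35 and 34 reads), *Sdr39u1* (21 and 43) and *Echdc2* (35 and 15) and the inner exon clusters of *Snapc3* (37 and 38), *Ncbp2* (8 and 27) and *Sdr39u1* (14 and 8) belonged to the runs above.

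Some clusters far from any gene end were examined after their values had been seen. Antisense to *Zmynd8*, a chromatin reader gene, 5 clusters between chr2:165635810-165642158 held 58 reads in ESCs and 31 in NPCs, a ratio of ESC over NPC of 1.93 (1.23 to 3.08). The clusters differed among themselves: 1 had 29 and 9 reads, others had 9 and 3, 7 and 3, and 6 and 6, and the one in an inner exon had 7 and 10. The nearest gene before them, *Eya2*, ended at least 38582 bases away and had 3 and 2 reads, and *Zmynd8* had 259 and 318. In the other direction, 7 clusters antisense to *Btnl7*, which belonged to no run, held 61 and 102 reads (NPC over ESC 1.62, 1.17 to 2.27). The largest of these had 25 and 24. In an intron of the deubiquitinase gene *Usp48* a cluster of unique reads had 25 reads in ESCs and 1 in NPCs, while *Usp48* exons had 1233 and 1014. The *Usp48* cluster passed the minimum through the ESC library alone, so no ratio is given.

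Among imprinted genes, which are expressed from 1 parental allele, *Rtl1* alone of a list of 20 (5%, against 1.44% of all protein-coding genes) held antisense clusters. *Rtl1* is a retrotransposon-derived gene expressed from the paternal allele, and its antisense strand is known as the host of several microRNAs expressed from the maternal allele. A cluster at its 5′ end had 0 reads in ESCs and 11 in NPCs, 4415 bases after *Mir136*. It passed the minimum of 10 reads through the NPC library alone, so no ratio is given. A second, in its last exon, 447 bases after *Mir433*, had 2 and 9 reads (NPC over ESC 4.37, 0.904 to 41.6). Both are near the minimum of 10 reads, and all of their reads were unique. In the last exon of *Nlrp12*, chosen after its values had been seen, 1606 bases after *Mir295*, a member of a microRNA cluster known from ESCs, a cluster had 13 reads in ESCs and 1 in NPCs. The *Nlrp12* cluster passed the minimum through the ESC library alone, so no ratio is given.

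The 323 opposite genes were long. Their median body was 78025 bases, and 40318 for the 98 genes with a cluster without a sense match, against 15427 for all 22367 protein-coding genes. A longer body offers more bases in which a cluster can lie, so the rule itself favours long genes. The shares of the gene lists below were not adjusted for length. No exon read was found for 36 of them, and fewer than 10 for 71. Their median level was 1.98 RPKM (RPM divided by the exon length in kilobases) in ESCs and 2.68 RPKM in NPCs. A single cluster was found in 208 genes and at least 5 in 13, with most in *Cntnap2* (15), a gene of the neurexin family. None of 144 ribosomal protein genes and none of 67 replication-dependent histone genes held a cluster, and 10 of 269 snoRNA host genes did (3.72%), against 323 of 22367 protein-coding genes (1.44%).

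The strand opposite to the clusters was mostly empty. In 458 of the 558 intervals no read of the other strand was found in either library, among them 339 of 382 with a sense match and 119 of 176 without. For each 100 antisense reads there were 2.90 on the other strand in ESCs and 3.25 in NPCs. In introns this was 0.424 in ESCs and 0.423 in NPCs, in last exons 22.7 and 18.7, in inner exons 64.6 and 56.2, and at 5′ ends 8.39 and 36.0. The inner exon value rested on 2 clusters of *Lonp1*, a mitochondrial protease gene. The first had 39 and 58 reads of the other strand beside 10 and 1 antisense reads, and the second 43 and 39 beside 6 and 4. Without *Lonp1* inner exons had 14.1 and 12.1 reads of the other strand per 100, without *Acat2* last exons had 15.96 and 13.6, and without *Gdpd5* 5′ ends had 4.23 and 22.0, leaving out being a choice made after seeing the data. Of the 6 and 28 reads of the other strand then left at 5′ ends, 4 and 26 lay opposite the single cluster of *Gm10222*. In 11 clusters the other strand held more reads than the antisense strand.

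A last kind of cluster was made of reads whose deposited interval was short, with cluster lengths of 1 to 46 bases and a median of 8. Some intervals are shorter than the 48 nt of sequence deposited with them, for a reason not given in the sources used here, and 27 clusters were shorter than 48 bases. They held 2877 of the 22520 antisense reads (12.8%), and 18 of them had no sense match and held 44.7% of the reads of that group. The largest, in an intron of the integrin gene *Itga9*, was 1 base long (chr9:118584070-118584070, minus strand) and had 645 reads in ESCs and 946 in NPCs (1.42, 1.29 to 1.58). In introns of *Zc3h7a* a cluster of 8 bases (chr16:11144409-11144416, plus strand) had 220 and 179 reads, and in *Morc1* 1 base had 144 and 120. Smaller ones with at least 90% unique reads lay in an intron of *Arhgap21* (6 bases, 24 and 28 reads) and at the 5′ end of *1700064H15Rik* (7 bases, 1 and 23 reads). The most frequent 48 nt of the first pair are printed because they are joined by more than their length: they share the 13 bases TCGCTGCGATCTA. Capitals mark the part that lies in the deposited interval.
Itga9 read, placed at chr9:118584067-118584114, minus strand: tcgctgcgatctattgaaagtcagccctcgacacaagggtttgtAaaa
Zc3h7a read, placed at chr16:11144363-11144410, plus strand: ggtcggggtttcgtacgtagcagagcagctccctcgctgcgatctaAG
These reads began at few positions, with 36.0 reads for each distinct start over the 27 clusters, against 2.94 over all 558. Whether they come from ribosomal RNA was not tested, and this holds for the *Zc3h7a* ratio and for the 44.7% of reads given above.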

How the data were processed

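Non-polyadenylated RNA was sequenced by the authors in 1 ESC and 1 NPC library. Poly(A) RNA had been removed in 3 rounds and ribosomal RNA in 1 round, and strand-specific 50-nt SOLiD reads had been mapped with Bowtie (version not given in the sources used here) to mm9 with up to 2 mismatches in a 45-base seed, uniqueness not being required. Reads of mitochondrial and ribosomal sequences and reads that met annotated repeats had been removed. The deposited files hold 1 genomic interval, strand and 48-nt sequence for each placed read, so a read repeated in the genome was counted at the place given by the authors. Each line was counted as 1 read.

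Genes were taken from GENCODE M1. Clusters were built, counted and classified in Python 3.11.15 with NumPy 2.4.6, pandas 2.3.3, numba 0.67.0 and pysam 0.24.0, intervals were computed with SciPy 1.17.1 and plots drawn with matplotlib 3.10.9. The 48 nt were searched on both strands of mm9, exactly and with up to 2 mismatches, and in all spliced GENCODE transcripts. A read without an exact copy in mm9 (7.22% of the antisense reads) was counted as not unique. The steps were tested on simulated data. Ratios used RPM over all deposited reads, with 1 read added on the log2 scale, and a cluster was counted as different past 2-fold. The median ratio over clusters and the reads outside the 10 largest clusters were alternative scalings. Other alternatives counted each start once, used unique reads only, changed the minimum, joined gaps, or required distance from genes on the own strand. The sequencing depth leaves a median of 20.5 pooled reads per antisense cluster.

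Named by rule were, for each position, the 5 clusters with the most reads among those with at least 90% unique reads, the 2 with the most reads below 90%, and, among clusters of at least 100 reads and 90% unique reads, those with the highest ratios. The clusters, lists and rules were chosen with earlier results of these data known. Members on chromosome 18 (21 clusters) were not compared with exon junctions, and no sequence of theirs is shown. Some results were left out and are not reported here.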

Additional observations from a re-analysis of the deposited data

How the results depend on the processing

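No paired analysis was possible because each cell type had 1 library. With each start position counted once, 314 clusters with 0.181% of the reads were found in place of 558 with 0.260%, and 5.73% of them (11.6% of all clusters) were more than 2-fold higher in NPCs and 13.4% (8.48%) in ESCs, in place of 24.4% and 15.8%, so that the larger share was then in ESCs. With unique reads only there were 182 clusters with 0.0849% of the reads, 3.30% at 5′ ends, 25.8% in last exons, 7.69% in inner exons and 63.2% in introns, in place of 1.61, 11.5, 3.05 and 83.9%. Leaving out reads with a sense match, a setting added once the data had been seen, gave 175 clusters with 0.0684% of the reads and 4%, 29.1%, 8.57% and 58.3% in these positions. A minimum of 50 reads left 90 clusters with 0.150% of the reads, 7.78% in last exons and 87.8% in introns, with 12.2% more than 2-fold higher in NPCs (25.8% of all clusters) and 8.89% in ESCs (9.17%), so that the ESC share was no longer above that of all clusters. Without a minimum there were 40079 clusters with 0.868% of the reads, 5.35% at 5′ ends, 10.4% in inner exons and 70.6% in introns. Of these 6.48% and 51.3% were past 2-fold (13.7% and 37.0% of all clusters). Their median log2 ratio was -1.04, the value that a lone ESC read takes with 1 read added. A lone NPC read stays just short of 2-fold, so no difference is read from these shares. Joining gaps of up to 40 bases gave 0.272% of the reads, 5.54% in inner exons and 79.3% in introns. Without a gene on the own strand within 1000 bases, last exons held 8.75% and introns 87.2%. Scaling by the median ratio moved the shares past 2-fold to 12.9% in NPCs and 24.7% in ESCs (18.3% and 18.1% of all clusters), and scaling by reads outside the 10 largest clusters moved that in NPCs to 20.8% (26.6% of all clusters). The unique share of reads was 17.1% in place of 28.0% when 1 place with up to 2 mismatches was required, and 5.77 in place of 3.09 reads lay on the other strand per 100 when distinct starts were counted. With exact matches only, chosen after seeing the data, 350 in place of 382 clusters had a sense match. Introns held the most clusters under each of these settings. Differences between cell types cannot be told from differences between libraries, and most single clusters hold too few reads to show a 2-fold difference.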

Other observations

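A few sequence features were counted in the 100 bases around the middle of each cluster, on its own strand. The letters TGATGA followed by CTGA, as in the boxes of C/D snoRNAs, were found in 9 of 558 clusters (1.61%, against 1.39% of all clusters with at least 10 reads), all 9 of them sense matches. The polyadenylation signal AATAAA was found in 18 (3.23%, against 2.20%), and a run of 8 A in 3 (0.538%, against 0.200%). An edge of the cluster lay within 2 bases of an exon boundary of the opposite gene in 4 clusters (0.717%).

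The 2 clusters in the last exon of *Acat2* (29 and 56 reads, 11 and 33 reads) matched *Tcp1*, the neighbouring gene on the strand of the clusters. The other strand of the first interval held 43 reads in ESCs and 47 in NPCs.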
